A study of Mus musculus with 8 samples.

Results

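The matrix metalloproteases (MMPs), the ADAMTS proteases, the ADAMTS-like proteins and the tissue inhibitors of metalloproteases (TIMPs) were taken from the deposited expression values by their gene symbols. The symbols gave 51 genes of 51822, which comprised 23 MMPs, 4 TIMPs, 19 ADAMTS proteases and 5 ADAMTS-like proteins. RNA had been sequenced from murine osteoblast progenitors kept in osteogenic medium (α-MEM with serum, ascorbic acid, dexamethasone and β-glycerophosphate in every group) and harvested on day 7 or day 14. Control cultures received DMSO, the vehicle, and treated cultures received 1 μmol·L−1 LAMZ (locamidazole, an aminoindazole derivative), with 2 libraries in each of the 4 groups. Every label names MC3T3-E1, an osteoblastic cell line from mouse calvaria, whereas the methods of the study name cultured calvarial cells, which are digested from the skull bones of newborn mice and can hold other cell types. The sources do not say that replicates came from separate cultures, so a p-value here measures the spread between these libraries, which may be technical.

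Expression was given as RPKM, a read count divided by gene length and by the library's mapped reads, which allows levels of different genes to be set side by side per length. The mapped reads recovered from the values came to 3463439 to 5832881 per library. Libraries of the same group correlated at r = 0.961 to 0.980 over the tested genes. The osteoblast markers Col1a1, Col1a2, Runx2, Sp7, Alpl, Ibsp and Bglap were present in every library, with a summed RPKM of 7087 to 15651. Markers of macrophages were present too and separated the treatments. The 19 markers measured (of a list of 20) summed to 478 and 625 RPKM in the day 7 control libraries and to 1179 and 1212 in those of day 14, against 7.58 to 9.57 in the 4 LAMZ libraries, in which the macrophage genes C1qa, C1qb and C1qc were listed at 0. Fewer macrophages and less macrophage RNA per cell cannot be told apart in bulk RNA.

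MMPs are zinc-dependent proteases that are secreted or held at the membrane as inactive proenzymes and, once activated, cleave collagens and other matrix proteins. ADAMTS proteases are secreted enzymes with thrombospondin repeats that cleave proteoglycans such as aggrecan and versican or remove the amino-terminal propeptides of fibrillar procollagens, and ADAMTS-like proteins have the same repeats without a protease domain. TIMPs bind the active site of MMPs and, in the case of Timp3, also of several ADAMTS proteases. In bone, osteoblasts and hypertrophic chondrocytes are known for Mmp13, osteoclasts for Mmp9 and macrophages for Mmp12.

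The summed RPKM of the 4 TIMPs (442 to 620 over the 8 libraries) was close in size to that of the 23 MMPs (485 to 793), and the 24 ADAMTS and ADAMTS-like genes summed to 145 to 219. That last sum was 219 in both day 7 control libraries and 173 and 175 with LAMZ, and it was 217 and 219 in the day 14 control libraries and 145 and 150 with LAMZ, so LAMZ and control libraries did not overlap on either day. For the MMPs, the sum was 485 and 507 in control and 508 and 512 with LAMZ on day 7. On day 14 it was 555 and 659 in control and 700 and 793 with LAMZ. The RPKM of all genes together was also higher with LAMZ. This total was 361198 and 338220 in day 7 control and 427558 and 437003 with LAMZ. On day 14 the total was 297868 and 286747 in control and 376912 and 375439 with LAMZ. Sums given here and below were not scaled to these totals, so a higher sum with LAMZ may rest on the scaling. Timp1, Timp2, Mmp2, Mmp13 and Mmp14 had the highest mean levels.

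**Figure D1:**
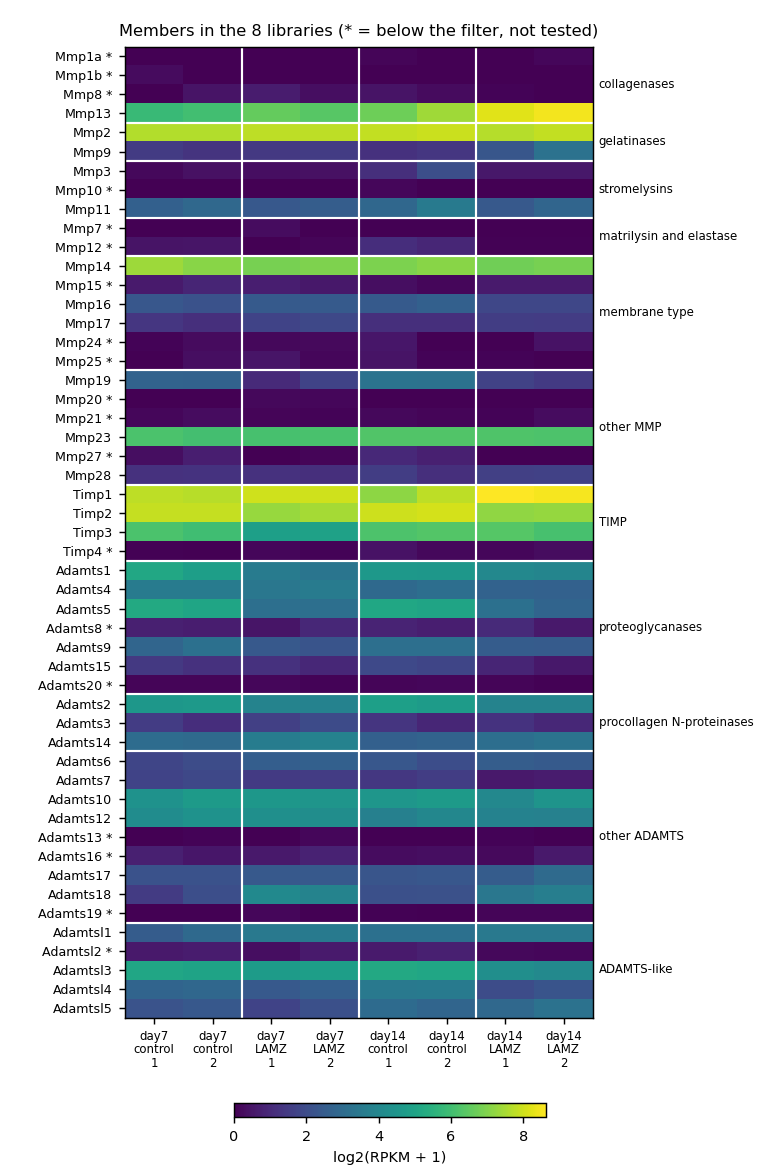
The 51 genes in the 8 libraries as log2(RPKM + 1), with a row for each gene, grouped by enzyme class, and a column for each library. Timp1, Timp2, Mmp2, Mmp14, Mmp13 and Mmp23 form the bright rows, and the 19 genes with an asterisk were below the filter and were not tested.

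LAMZ was compared with control on each day with limma on log2(RPKM + 1), over the 12514 genes that reached an RPKM of 1 in at least 2 libraries, which included 32 of the 51. At an adjusted p under 0.05, 11 of the 32 differed at day 7, where 12.8% of all tested genes did. Of these, 4 were higher with LAMZ (Adamts6, Adamts14, Adamts18 and Adamtsl1, beside 4.35% of all tested genes) and 7 were lower (Adamts1, Adamts2, Adamts5, Adamts9, Mmp19, Timp2 and Timp3, beside 8.49%). At day 14, 17 of the 32 differed, where 23% of all tested genes did. Here 5 were higher (Adamts14, Adamts18, Mmp9, Mmp13 and Timp1, beside 6.96% of all tested genes). Another 12 were lower (Adamts1, Adamts2, Adamts5, Adamts7, Adamts9, Adamts15, Adamtsl3, Adamtsl4, Mmp3, Mmp16, Mmp19 and Timp2, beside 16%), of which Mmp3 passed the filter through the day 14 control libraries alone, which leaves 11. On both days, 6 of the 32 were lower (6.11% of all tested genes) and 2 were higher (2.24% of all tested genes). The median log2 fold change of the 32 was −0.05 at day 7 and −0.17 at day 14, beside −0.08 and −0.15 over all tested genes.

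The direction of the calls leaned on the scaling between libraries. With every library rescaled to the same summed RPKM, the split was 2 higher and 11 lower at day 7 and 4 higher and 20 lower at day 14, and with libraries centred on their median it was 5 and 5 at day 7 and 7 and 9 at day 14. Rescaling to the same sum moved the median of all tested genes to −0.31 and −0.43. Of the calls, 6 of 11 at day 7 (Adamts1, Adamts2, Adamts5, Adamts18, Mmp19 and Timp3) and 13 of 17 at day 14 held under every alternative setting that tested the gene. With 1 library left out, the calls lost were those of Adamts6, Adamts9, Adamts14, Adamtsl1 and Timp2 at day 7 (adjusted p of 0.0633 to 0.209 where lost) and of Adamts1, Adamts9, Adamts14 and Mmp3 at day 14 (0.0514 to 0.148). The count at day 7 was 6 without LAMZ replicate 2 of that day and 7 without LAMZ replicate 1, whose file carried a column name unlike its sample's title.

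**Figure D2:**
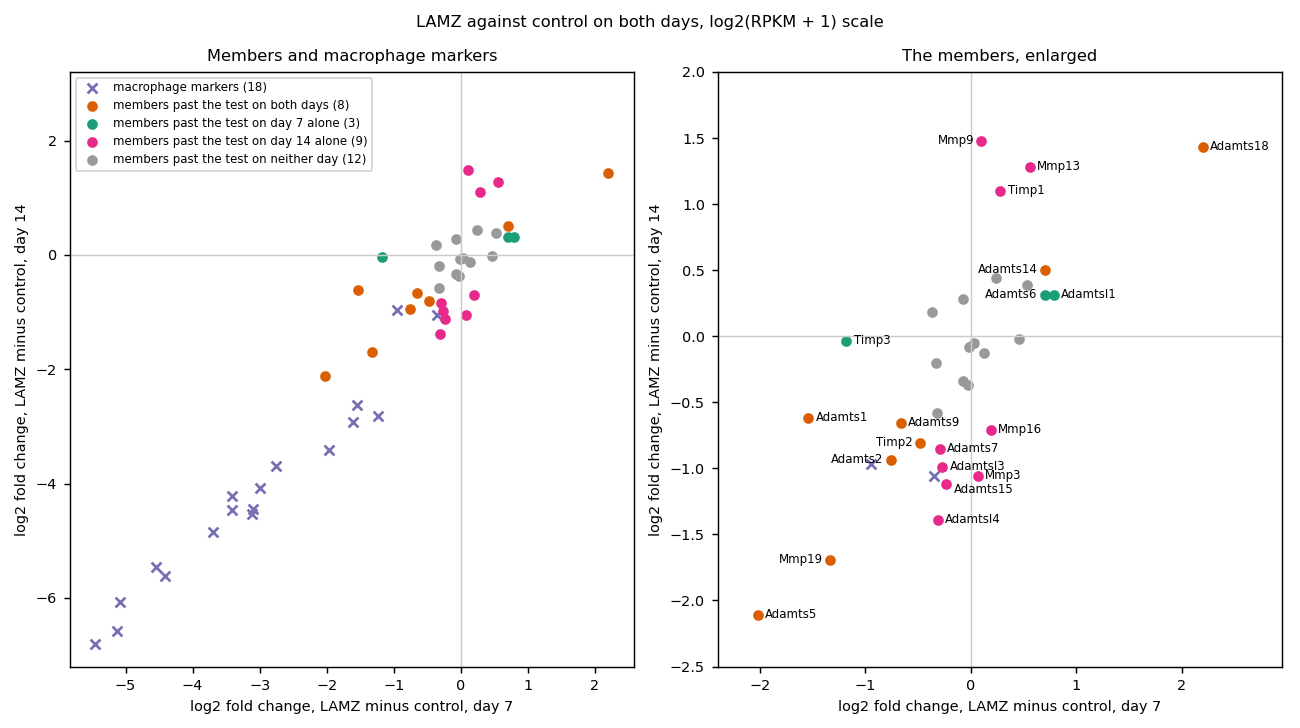
Log2 fold change of LAMZ against control at day 7 (horizontal) and day 14 (vertical) on the log2(RPKM + 1) scale, for the 32 tested genes of the family (circles, coloured by the days on which they passed the test) and 18 macrophage markers (crosses), with the family enlarged at the right. The markers reach below −5 on both axes, and the lowest gene of the family, Adamts5, lies at −2.02 and −2.11.

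Among the collagenases, which cleave triple-helical fibrillar collagen, Mmp13 was the abundant transcript and rose with LAMZ at day 14. Its RPKM was 55.8 and 63.7 in the day 7 control libraries and 95.7 and 82.1 with LAMZ. On day 14 it was 105 and 169 in control and 299 and 354 with LAMZ. The log2 fold change was 0.56 ± 0.22 (SE; adjusted p = 0.142) at day 7 and 1.28 ± 0.22 (adjusted p = 0.0052) at day 14, with no overlap between LAMZ and control libraries on either day. Mmp13 also rose from day 7 to day 14, by 1.15 ± 0.22 in control (adjusted p = 0.0314) and by 1.86 ± 0.22 with LAMZ (adjusted p = 0.0022) on the log2 scale. The other collagenases were scarce. Mmp8, the collagenase of neutrophils, had at most 6 reads in any library, and Mmp1a and Mmp1b had at most 1.

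The gelatinases, which cleave denatured collagen and basement membrane collagen, are Mmp2 and Mmp9. Mmp2 was high in all libraries, at 196 and 198 RPKM in day 7 control, 216 and 214 in day 7 LAMZ, 224 and 245 in day 14 control and 200 and 228 in day 14 LAMZ. The log2 fold changes of Mmp2 were 0.13 ± 0.12 (adjusted p = 0.536) and −0.13 ± 0.12 (adjusted p = 0.456), and its libraries overlapped at day 14 but not at day 7. Mmp9 was low, at 1.80 and 1.47 RPKM in day 7 control, 1.72 and 1.90 in day 7 LAMZ and 1.37 and 1.56 in day 14 control. In the day 14 LAMZ libraries it was 3.92 and 8.62, both above all other libraries but apart from each other. These values rest on 81 and 149 reads, against 25 and 26 in the day 14 control libraries. The log2 fold change of Mmp9 at day 14 was 1.48 ± 0.28 (adjusted p = 0.0075), and from day 7 to day 14 with LAMZ it was 1.29 ± 0.28 (adjusted p = 0.0203).

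Mmp9 is a textbook marker of osteoclasts, and the osteoclast markers were therefore set beside it. Of 7 osteoclast genes, Acp5 and Ctsk were tested and neither passed the test for LAMZ on either day. The summed RPKM of the list was 101 to 108 in day 14 control and 105 to 123 in day 14 LAMZ, nearly all of it Ctsk, and the 5 genes not tested were at or below 1.03 RPKM in every library. Of these, Atp6v0d2 had 15 and 11 reads in day 14 control and 2 and 1 with LAMZ, opposite in direction to Mmp9. The others had at most 3 reads in any library. Mmp9 and Mmp13 passed the test at day 14 alone, but neither passed the limma test of the difference between the days (adjusted p = 0.157 and 0.304). Chondrocyte markers were mostly higher with LAMZ on both days. The 4 measured (Sox9, Col2a1, Col9a1 and Matn1, of a list of 5) summed to 150 to 226 RPKM in control and 382 to 405 with LAMZ on day 7. On day 14 they summed to 84.7 to 93.8 in control and 266 to 269 with LAMZ. Of the 4, 3 were higher on each day, beside 4.35% (day 7) and 6.96% (day 14) of all tested genes, and Sox9 was lower on day 14. From day 7 to day 14 with LAMZ, when Mmp9 and Mmp13 rose, the log2 fold changes of Col2a1, Col9a1 and Sox9 were −0.57, −0.55 and −0.58. Of these, Col9a1 passed the test (adjusted p = 0.0254), and the log2 fold change of Matn1 was 0.07. Of the 7 osteoblast markers, 4 were higher on each day, beside the same shares of all tested genes (4.35% and 6.96%). The 7 summed to 7087 to 8626 RPKM in control and 9151 to 9455 with LAMZ on day 7. On day 14 they summed to 9883 to 10449 in control and 13880 to 15651 with LAMZ. The part of these cell types in the rise of Mmp9 and Mmp13 was not tested.

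Mmp13 lies at one end of a run of 10 MMP genes on chromosome 9 (chr9:7272514-7699585, GRCm38), in the order Mmp13, Mmp12, Mmp1b, Mmp3, Mmp1a, Mmp10, Mmp8, Mmp27, Mmp20 and Mmp7. Its detected neighbours did not rise with it. Mmp3, a stromelysin with broad matrix substrates, was at 0.147 and 0.321 RPKM in day 7 control, 0.260 and 0.320 in day 7 LAMZ, 1.24 and 3.19 in day 14 control and 0.476 and 0.455 in day 14 LAMZ. It was thus highest in the day 14 control libraries, with 12 and 26 reads, and its log2 fold change with LAMZ was −1.06 ± 0.30 at day 14 (adjusted p = 0.0395), a call that 9 of 15 alternatives lost. Mmp3 reached an RPKM of 1 in these 2 control libraries alone, so it passed the filter through the group in which it was high, and its lower level with LAMZ was partly fixed by that choice. Mmp12, the macrophage elastase, and Mmp27 were below the filter and also fell. Mmp12 had 10 and 10 reads in day 7 control, 0 and 3 in day 7 LAMZ, 46 and 30 in day 14 control and 1 and 1 in day 14 LAMZ. Mmp27 had 2 and 5, 0 and 1, 12 and 7, and 0 and 0 reads in the same order.

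Scaled to mapped reads, Mmp12 was 8.73-fold lower with LAMZ at day 7 (95% interval 2.59 to 45.9) and 41.2-fold lower at day 14 (11.0 to 346). Mmp27 was 9.17-fold lower at day 7 (1.18 to 413) and at least 3.35-fold lower at day 14, computed against a floor of 3 reads in each LAMZ library. These intervals and floors cover counting error only. In a fit without the filter, the adjusted p of limma was 0.191 at day 7 and 0.00755 at day 14 for Mmp12, and 0.29 and 0.0298 for Mmp27. The remaining genes of the run (Mmp1a, Mmp1b, Mmp7, Mmp8, Mmp10 and Mmp20) had 0 to 6 reads per library, where no difference was detectable.

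**Figure D3:**
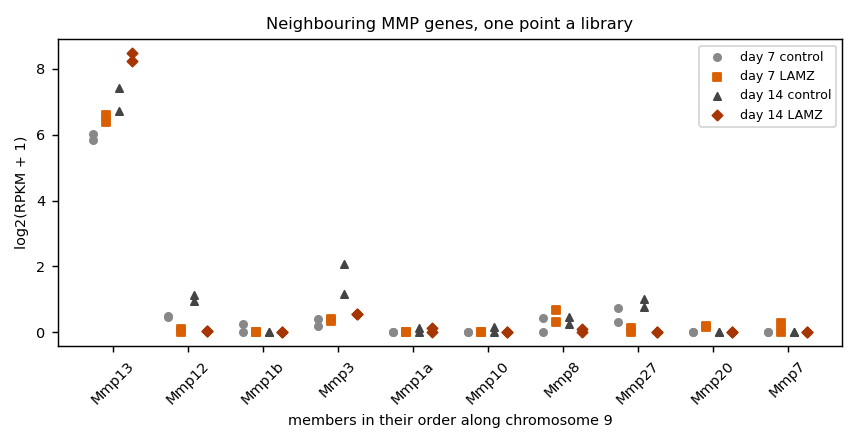
Level of the 10 neighbouring MMP genes of chromosome 9 in genome order, as log2(RPKM + 1), with a point for each library and a colour and shape for each group. Mmp13 is highest in the day 14 LAMZ libraries, whereas Mmp3, Mmp12 and Mmp27 are highest in the day 14 control libraries.

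The 250 bases before the start of the neighbours that moved in opposite directions are printed here, because MMP genes of this run are known targets of the transcription factor AP-1 and Mmp13 is a known target of Runx2. The sequences are those of RefSeq for GRCm38.p6, on the plus strand and read 5′ to 3′, and capitals mark TGAGTCA, the AP-1 consensus, and TGTGGT, the core bound by RUNX factors, or their reverse complements TGACTCA and ACCACA. The windows are chr9:7272264-7272513 for Mmp13, chr9:7344147-7344396 and chr9:7347124-7347373 for the upstream and downstream starts of Mmp12, chr9:7445572-7445821 for Mmp3 and chr9:7571146-7571395 for Mmp27.
Mmp13: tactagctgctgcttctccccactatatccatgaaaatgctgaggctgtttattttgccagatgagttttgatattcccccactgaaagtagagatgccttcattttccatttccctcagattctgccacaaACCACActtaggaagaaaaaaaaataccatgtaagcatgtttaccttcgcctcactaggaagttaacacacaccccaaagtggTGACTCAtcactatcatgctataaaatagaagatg
Mmp12, upstream start: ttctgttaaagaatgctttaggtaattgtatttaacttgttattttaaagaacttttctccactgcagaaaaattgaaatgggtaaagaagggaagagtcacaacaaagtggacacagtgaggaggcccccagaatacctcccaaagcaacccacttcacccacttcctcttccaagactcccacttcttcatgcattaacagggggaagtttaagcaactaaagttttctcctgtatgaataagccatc
Mmp12, downstream start: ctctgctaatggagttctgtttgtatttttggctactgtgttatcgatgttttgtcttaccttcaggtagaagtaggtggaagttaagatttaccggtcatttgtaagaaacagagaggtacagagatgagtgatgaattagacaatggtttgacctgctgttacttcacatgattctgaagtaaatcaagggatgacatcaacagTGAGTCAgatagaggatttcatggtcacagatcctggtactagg
Mmp3: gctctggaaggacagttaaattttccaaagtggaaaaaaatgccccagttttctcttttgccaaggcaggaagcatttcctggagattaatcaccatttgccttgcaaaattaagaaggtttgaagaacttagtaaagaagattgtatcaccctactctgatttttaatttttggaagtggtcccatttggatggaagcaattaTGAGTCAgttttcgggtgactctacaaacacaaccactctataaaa
Mmp27: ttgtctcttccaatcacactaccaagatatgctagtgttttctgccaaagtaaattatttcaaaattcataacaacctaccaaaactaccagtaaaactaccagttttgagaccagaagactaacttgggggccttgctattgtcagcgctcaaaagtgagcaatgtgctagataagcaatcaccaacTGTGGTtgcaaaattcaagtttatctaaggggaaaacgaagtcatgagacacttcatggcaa

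Mmp13, which rose, held an AP-1 match 35 to 29 bases before its start and a RUNX match 118 to 113 bases before it. Mmp3 and the downstream start of Mmp12 held AP-1 matches at 46 to 40 and at 44 to 38 bases, in genes that were lower with LAMZ. Mmp27 held a RUNX match at 62 to 57 bases and no AP-1 match. RefSeq gave promoters for 36 of the 51 genes, in 39 windows. AP-1 letters were in those of 7 genes (Mmp1a, Mmp1b, Mmp3, Mmp7, Mmp10, Mmp12 and Mmp13), all of the chromosome 9 run, and in 4.46% of the 32851 windows of all genes. RUNX letters were in those of 6 genes (Mmp1b, Mmp7, Mmp13, Mmp14, Mmp23 and Mmp27) and in 14.05% of all windows. The AP-1 letters were therefore in the windows of genes that rose, fell and were not detected. A match is a description of the sequence and does not show that a factor bound there.

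Of the membrane-bound MMPs, 3 of 6 were tested, and Mmp16 passed the test, at day 14 (where 23% of all tested genes did). Mmp14, which cleaves collagen at the cell surface and activates Mmp2, was at 163 and 136 RPKM in day 7 control, 115 and 122 in day 7 LAMZ, 120 and 135 in day 14 control and 107 and 114 in day 14 LAMZ. The log2 fold changes of −0.33 ± 0.13 (adjusted p = 0.154) and −0.20 ± 0.13 (adjusted p = 0.321) did not pass the test, although the LAMZ libraries lay below the control libraries on both days. Mmp16, another membrane-type MMP, was at 4.01 and 3.50 RPKM in day 7 control and 4.38 and 4.45 with LAMZ, and at 4.47 and 5.23 in day 14 control and 2.57 and 2.58 with LAMZ. It was lower at day 14 (log2 fold change −0.71 ± 0.12, adjusted p = 0.00575) and fell from day 7 to day 14 with LAMZ (−0.60 ± 0.12, adjusted p = 0.0181). Mmp17, which is held by a lipid anchor, was between 1.24 and 2.67 RPKM and higher in every LAMZ library than in every control library, with log2 fold changes of 0.53 ± 0.15 (adjusted p = 0.0531) and 0.39 ± 0.15 (adjusted p = 0.0955). Mmp15, Mmp24 and Mmp25 stayed below 1 RPKM.

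Of the other MMPs, Mmp19 was lower with LAMZ on both days. Its RPKM was 5.63 and 5.56 in day 7 control and 1.06 and 2.34 with LAMZ, and 8.75 and 8.58 in day 14 control and 2.28 and 1.74 with LAMZ. The log2 fold changes were −1.33 ± 0.22 (adjusted p = 0.00711) and −1.69 ± 0.22 (adjusted p = 0.0014), and the groups were far apart on both days. Mmp11, Mmp23 and Mmp28 passed the test on neither day. Mmp23 was steady at 65.0 to 77.0 RPKM over the 8 libraries. Mmp11, a stromelysin by name that is activated by furin inside the cell, ranged from 4.22 to 10.4 and had log2 fold changes of −0.32 and −0.58. Mmp28 ranged from 1.24 to 2.17, and Mmp20 and Mmp21 reached at most 0.143 and 0.231 RPKM, on at most 3 reads.

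The inhibitors moved in different directions. Timp1, a secreted inhibitor that also binds the proenzyme of Mmp9, was at 214 and 208 RPKM in day 7 control and 256 and 257 with LAMZ, and at 142 and 215 in day 14 control and 393 and 358 with LAMZ. It was higher at day 14 (log2 fold change 1.10 ± 0.19, adjusted p = 0.00481) and did not pass the test at day 7 (0.28 ± 0.19, adjusted p = 0.374), though the libraries of the groups did not overlap on either day. Timp2, which inhibits MMPs and takes part in the activation of Mmp2 by Mmp14, was at 234 and 232 RPKM in day 7 control and 157 and 177 with LAMZ, and at 251 and 270 in day 14 control and 146 and 152 with LAMZ. It was lower on both days (−0.48 ± 0.12, adjusted p = 0.0333, and −0.81 ± 0.12, adjusted p = 0.00231). The day 7 call of Timp2 was lost under 9 of the 18 alternatives, and the day 14 call under none.

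Timp3, the inhibitor that stays bound to the matrix, was lower at day 7. Its RPKM was 72.1 and 61.5 in day 7 control and 28.1 and 29.4 with LAMZ, whereas it was 73.6 and 79.5 in day 14 control and 81.1 and 68.6 with LAMZ. The log2 fold change was −1.18 ± 0.13 at day 7 (adjusted p = 0.00143) and −0.04 ± 0.13 at day 14 (adjusted p = 0.87), where the libraries overlapped. From day 7 to day 14, Timp3 rose by 1.34 ± 0.13 on the log2 scale with LAMZ (adjusted p = 0.00109). Of the 32 genes, Timp3 was the only one to pass the test of the difference between the days (1.15 ± 0.19, adjusted p = 0.0496), which 0.623% of all tested genes did, and this p lay at the threshold and was lost when any 1 library was left out (0.0553 to 0.175). Timp4 was barely detected, with 0 to 11 reads per library. The TIMPs summed to 502 and 520 RPKM in day 7 control, 442 and 464 in day 7 LAMZ, 468 and 565 in day 14 control and 578 and 620 in day 14 LAMZ.

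**Figure D4:**
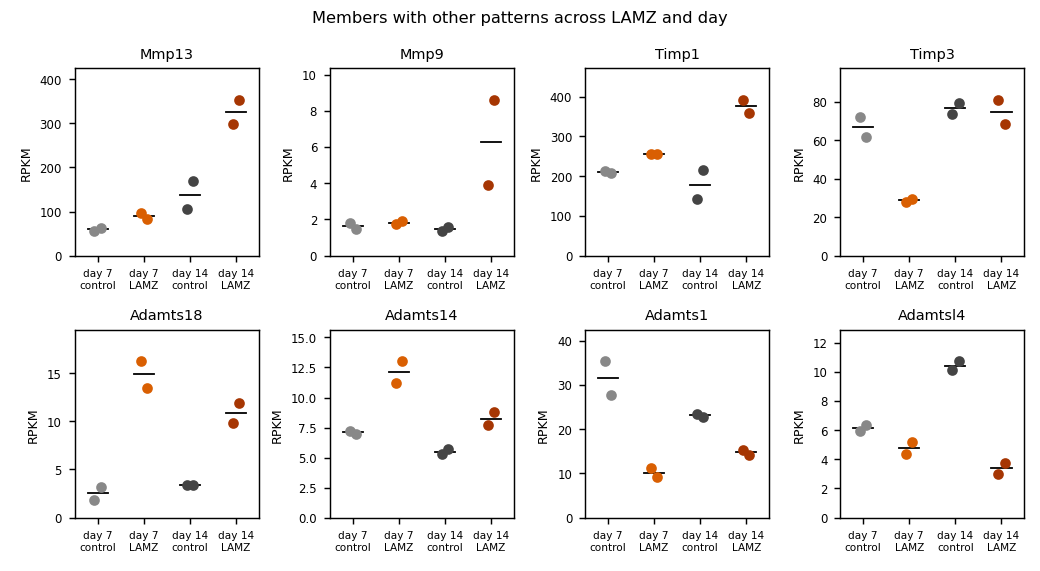
RPKM of Mmp13, Mmp9, Timp1, Timp3, Adamts18, Adamts14, Adamts1 and Adamtsl4 in each library (points) with the group mean (line), by day and treatment, with every axis from 0. Mmp13, Mmp9 and Timp1 stand highest in the day 14 LAMZ libraries, and Timp3 is low in the day 7 LAMZ libraries alone.

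Of the 7 proteoglycanases, ADAMTS proteases that cleave aggrecan and versican, 5 were tested. Of these, 3 were lower with LAMZ at day 7 (beside 8.49% of all tested genes) and 4 at day 14 (beside 16%). Adamts5, a main aggrecanase of mouse cartilage, was at 36.5 and 32.8 RPKM in day 7 control and 7.80 and 7.83 with LAMZ, and at 34.0 and 31.6 in day 14 control and 7.99 and 5.85 with LAMZ. The log2 fold changes of −2.02 ± 0.15 (adjusted p = 0.00022) and −2.11 ± 0.15 (adjusted p = 8e-05) were the lowest of the 32 genes on both days. Adamts1, the nearest protein-coding gene to Adamts5 on chromosome 16 (chr16:85793827-85803113, with Adamts5 at chr16:85856173-85901828, both on the minus strand, GRCm38), was at 35.3 and 27.7 RPKM in day 7 control and 11.1 and 9.20 with LAMZ, and at 23.4 and 22.8 in day 14 control and 15.3 and 14.2 with LAMZ. Its log2 fold change was −1.54 ± 0.15 at day 7 (adjusted p = 0.00073) and −0.62 ± 0.15 at day 14 (adjusted p = 0.0209), and the test of the difference between the days gave an adjusted p of 0.0991.

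Adamts4, the other aggrecanase, followed time and did not pass the test for LAMZ. It was at 11.1 and 10.9 RPKM in day 7 control, 9.65 and 11.1 in day 7 LAMZ, 6.66 and 7.59 in day 14 control and 5.49 and 5.37 in day 14 LAMZ. From day 7 to day 14 it fell by 0.56 on the log2 scale in control (SE 0.12, adjusted p = 0.0435) and by 0.82 with LAMZ (SE 0.12, adjusted p = 0.00511). The sum of Adamts1, Adamts4 and Adamts5 was 71.4 and 82.9 RPKM in day 7 control and 28.2 and 28.6 with LAMZ, and 62.0 and 64.1 in day 14 control and 25.4 and 28.8 with LAMZ. Adamts9, which cleaves versican, was at 6.03 and 8.02 RPKM in day 7 control, 4.36 and 3.77 with LAMZ, 7.79 and 7.96 in day 14 control and 4.64 and 4.58 with LAMZ. It was lower by a log2 fold change of −0.66 ± 0.14 on each day (adjusted p = 0.0239 and 0.0141). Adamts15 was low, at 0.472 to 2.70 RPKM, and lower at day 14 (−1.12 ± 0.19, adjusted p = 0.00525). Adamts8 and Adamts20 were below the filter, with at most 28 and 5 reads.

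The procollagen N-proteinases, which trim the amino-terminal propeptides of fibrillar collagens, split in direction. Adamts2 was at 22.6 and 23.6 RPKM in day 7 control and 13.5 and 13.0 with LAMZ, and at 28.0 and 25.6 in day 14 control and 13.5 and 13.4 with LAMZ. It was lower on both days (log2 fold change −0.76 ± 0.11, adjusted p = 0.00394, and −0.94 ± 0.11, adjusted p = 0.00079). Adamts14 was at 7.25 and 6.94 RPKM in day 7 control and 11.2 and 13.0 with LAMZ, and at 5.30 and 5.70 in day 14 control and 7.69 and 8.79 with LAMZ. It was higher on both days (0.70 ± 0.12, adjusted p = 0.011, and 0.50 ± 0.12, adjusted p = 0.0233). Adamts3 was at 0.896 to 2.90 RPKM and passed the test on neither day. The sum of the 3 genes was 31.7 and 31.8 RPKM in day 7 control and 26.8 and 29.0 with LAMZ, and 32.2 and 34.8 in day 14 control and 22.6 and 23.2 with LAMZ.

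Among the other ADAMTS proteases, Adamts18 had the largest rise of the 32 genes at day 7. Its RPKM was 1.82 and 3.21 in day 7 control and 16.2 and 13.5 with LAMZ, and 3.35 and 3.37 in day 14 control and 9.79 and 11.9 with LAMZ. The log2 fold changes were 2.20 ± 0.20 (adjusted p = 0.00055) and 1.43 ± 0.20 (adjusted p = 0.002), with 70 to 183 reads in the control libraries and 581 to 716 in the LAMZ libraries. Adamts6 was higher at day 7 (2.48 and 3.05 RPKM in control, 4.96 and 5.21 with LAMZ, log2 fold change 0.70 ± 0.15, adjusted p = 0.0198). Adamts7 and Adamts12, which are known to cleave the cartilage protein COMP, gave different calls at day 14. Adamts7 was at 1.63 and 1.97 RPKM in day 14 control and 0.519 and 0.587 with LAMZ, on 18 and 19 reads in the LAMZ libraries (−0.85 ± 0.15, adjusted p = 0.00592). Adamts12 ranged from 12.4 to 20.0 RPKM and did not pass the test for LAMZ on either day. Adamts10 (15.3 to 25.0 RPKM) and Adamts17 (3.48 to 6.94 RPKM), which are tied to fibrillin microfibrils, passed the test on neither day, and Adamts13, Adamts16 and Adamts19 stayed below 1 RPKM.

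Of the ADAMTS-like proteins, several of which bind fibrillin microfibrils, 4 of 5 were tested. Of these, 1 was higher at day 7 (beside 4.35% of all tested genes) and 2 were lower at day 14 (beside 16%). Adamtsl3 was at 33.3 and 30.8 RPKM in day 7 control and 25.6 and 27.4 with LAMZ, and at 35.7 and 33.5 in day 14 control and 18.3 and 15.6 with LAMZ (day 14 log2 fold change −0.99 ± 0.12, adjusted p = 0.00118). Adamtsl4 was at 5.94 and 6.33 RPKM in day 7 control and 4.36 and 5.17 with LAMZ, and at 10.1 and 10.7 in day 14 control and 2.98 and 3.76 with LAMZ. It rose with time in control (0.68 ± 0.14, adjusted p = 0.0356) and was lower with LAMZ at day 14 (−1.39 ± 0.14, adjusted p = 0.00039). Adamtsl1 was higher at day 7, at 4.69 and 6.63 RPKM in control and 10.1 and 10.6 with LAMZ (0.79 ± 0.15, adjusted p = 0.0131). At day 14 it was at 7.99 and 8.02 RPKM in control and 10.2 and 10.2 with LAMZ (0.31 ± 0.15, adjusted p = 0.173), and the test of the difference between the days gave an adjusted p of 0.308. Adamtsl5 did not pass the test for LAMZ but rose with time in the LAMZ cultures (1.16 ± 0.18, adjusted p = 0.00641). Adamtsl2 was below the filter, with 4 to 25 reads.

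The 2 days were also compared within each treatment. In control, 3 of the 32 genes changed (Mmp13 and Adamtsl4 higher and Adamts4 lower at day 14), where 4.86% of all tested genes did. With LAMZ, 10 changed, where 14.4% of all tested genes did. Of these, Adamtsl5, Mmp9, Mmp13 and Timp3 were higher at day 14, and Adamts4, Adamts7, Adamts12, Adamts14, Adamtsl3 and Mmp16 were lower. In control the count was 0 or 1 when any 1 library was left out, and with LAMZ it was 3 without LAMZ replicate 2 of day 14 and at most 11. The smaller count in control is not a test of a difference between the treatments, and that test named Timp3 alone.

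The family was then separated into genes that fell as the macrophage markers did and genes that did not. The 18 tested macrophage markers kept 0% to 12.5% of their control level with LAMZ at day 7 (median 1.0%) and 0% to 4.9% at day 14 (median 0.3%). In control they rose 1.06-fold to 3.97-fold from day 7 to day 14 (median 2.41-fold). Except for Cd68 and Lyz2, they reached an RPKM of 1 in control libraries alone. They thus passed the filter through the group in which they were high, and their low share with LAMZ was partly fixed by that choice. Cx3cr1, which was measured but did not pass the filter, kept 13.9% and 50.9%, on at most 11 reads in any library. Of the family, 40 genes had more than 3 reads, summed over the control libraries, on both days. Of these, 2 were left at or below the highest tested marker on both days, namely Mmp12 (10.4% and 2.5%) and Mmp27 (9.7% and 0%). The day 7 limit was that of Cd14 alone (12.5%), a scarce marker at 1.18 and 2.94 RPKM in day 7 control. The next marker, Aif1, kept 7.1% at day 7, less than either gene. At day 14 the limit was that of Aif1 (4.9%), and the next marker, Cd14, kept 3.7%, more than either gene. In control, Mmp12 rose 2.74-fold and Mmp27 1.92-fold between the days. Of the 4 proteases named for leukocytes or osteoclasts (Mmp8, Mmp9, Mmp12 and Mmp25), Mmp12 alone showed this pattern, Mmp9 rose with LAMZ at day 14, and Mmp8 and Mmp25 had at most 11 reads in any library.

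A looser rule took the genes that were lower on both days and whose log2 level had a Pearson r of at least 0.9 with the mean of the macrophage markers over the 8 libraries. It gave 5 genes, Adamts2, Adamts5, Adamts9, Mmp19 and Timp2, and a limit of 0.8 added Adamts1. The mean marker level was 0.25 to 0.32 in the 4 LAMZ libraries and 3.11 to 4.55 in the 4 control libraries on the log2 scale, so such an r mainly separates these 2 clusters and holds little on how closely a gene follows the markers. With LAMZ the 5 genes kept 71.8% (Timp2), 57.8% (Adamts9), 57.4% (Adamts2), 30.4% (Mmp19) and 22.5% (Adamts5) of the control level at day 7 and 57.0%, 58.5%, 50.3%, 23.2% and 21.1% at day 14. In control, their day 14 level was 1.55-fold (Mmp19), 1.16-fold (Adamts2), 1.12-fold (Adamts9 and Timp2) and 0.95-fold (Adamts5) that of day 7, and none of the 5 passed the test of time. The ratio of Adamts5 lies below the range of the markers. Those of Mmp19, Adamts2, Adamts9 and Timp2 lie within it only through Aif1 (1.06-fold), a marker with 4 to 14 reads in the control libraries. Every other tested marker rose at least 1.89-fold (Tyrobp), more than any of these genes. The part of the macrophage markers in their fall was not tested.

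**Figure D5:**
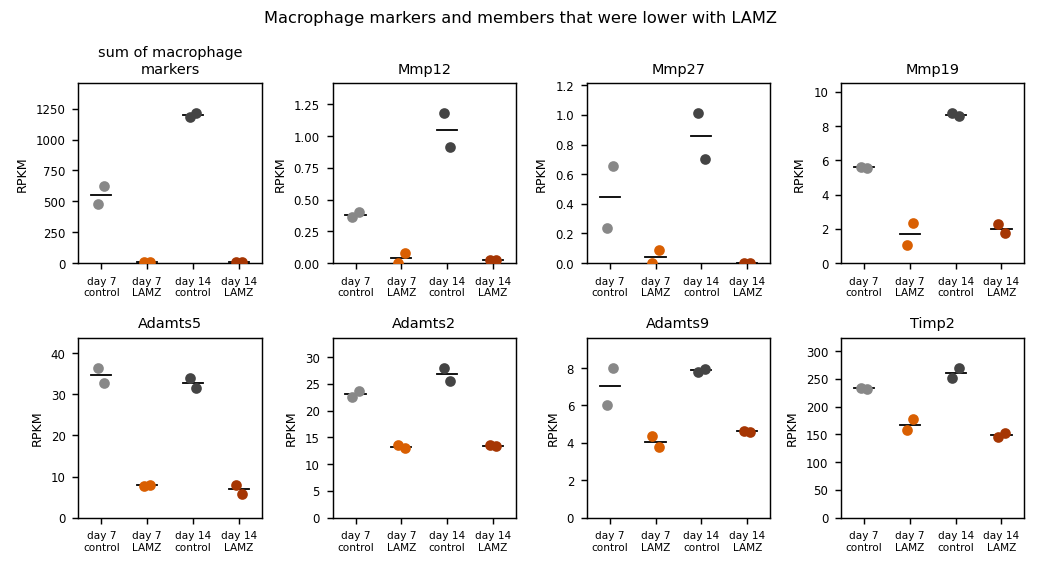
RPKM of the summed macrophage markers and of 7 genes that were lower with LAMZ in each library (points) with the group mean (line), with every axis from 0. The markers, Mmp12 and Mmp27 are near 0 in all LAMZ libraries and higher in day 14 than in day 7 control, whereas Adamts2, Adamts5, Adamts9 and Timp2 keep a level with LAMZ and differ little between the control days.

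Other genes of the same pathway, which activate, inhibit or clear these proteases, were taken from a list of 29, of which 27 were tested. At day 7, 4 were higher and 7 lower, beside 4.35% and 8.49% of all tested genes. At day 14, 5 were higher and 11 lower, beside 6.96% and 16%. Adam8, a protease known from leukocytes, kept 6.5% and 4.1% of its control level on days 7 and 14. These shares were below the highest tested macrophage marker on each day, though at day 14 above every tested marker but Aif1. Plau, the urokinase that starts the plasmin cascade, kept 42.1% and 18.3% (log2 fold change −1.15 ± 0.15, adjusted p = 0.00259, and −2.27 ± 0.15, adjusted p = 6.1e-05). Serpine2, an inhibitor of plasminogen activators, was higher on both days (0.89 ± 0.15 and 1.22 ± 0.15, adjusted p = 0.00874 and 0.00127). Reck, a membrane-anchored inhibitor of MMPs, was lower on both days (−0.57 ± 0.11 and −0.73 ± 0.11, adjusted p = 0.0153 and 0.00314), as was Lrp1, the receptor that takes up Timp3, Adamts5 and Mmp13 (−0.85 ± 0.16 and −0.55 ± 0.16, adjusted p = 0.0117 and 0.0375). Of the C-proteinases that trim procollagen at the other end, Tll1 was lower on both days (−1.64 ± 0.16 and −1.84 ± 0.16, adjusted p = 0.0008 and 0.00023) and Bmp1 did not pass the test.

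The substrates were taken from a list of 10, of which 7 were tested. At day 7, 1 was higher and 1 lower, where 12.8% of all tested genes differed, and at day 14, 2 were higher and 4 lower, where 23% did. Acan, the aggrecan that the proteoglycanases cut, was at 4.37 and 6.88 RPKM in day 7 control and 51.0 and 51.5 with LAMZ, and at 5.83 and 7.17 in day 14 control and 45.5 and 59.6 with LAMZ (log2 fold change 3.01 ± 0.21, adjusted p = 0.00016, and 2.83 ± 0.21, adjusted p = 9.5e-05). Aggrecan transcript was thus higher in the same libraries in which Adamts1 and Adamts5 were lower. Vcan, the versican, passed the test on neither day. Fbn1, the fibrillin of the microfibrils that ADAMTS-like proteins bind, was at 73.7 and 82.2 RPKM in day 7 control and 19.0 and 19.6 with LAMZ, and at 64.7 and 73.3 in day 14 control and 10.6 and 10.5 with LAMZ (−1.96 ± 0.12, adjusted p = 9e-05, and −2.60 ± 0.12, adjusted p = 1e-05). Comp was higher at day 14 (1.25 ± 0.16, adjusted p = 0.00144).

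Several of these genes share their position with another gene, and whether the counting used the strand is not given in the sources used here. In the GENCODE annotation of GRCm38, Timp1 lies within Syn1, Timp3 within Syn3 and Timp4 within Syn2, all on the opposite strand. Mmp19 overlaps Tmem198b, Adamts7 overlaps Tbc1d2b and Mmp12 overlaps Mmp1b on the opposite strand, and Timp2 overlaps Cep295nl on its own strand. Reads of such pairs may be split between them.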

How the data were processed

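RNA of murine osteoblast progenitors was sequenced on an Ion Proton in 8 libraries, 2 in each of 4 groups (DMSO or LAMZ, day 7 or day 14), grouped by the sample labels. The column name in the file of day 7 LAMZ replicate 1 differed from its sample's title, and the file was used for the sample under which it was deposited. The authors assigned reads to genes with CLC Genomics Workbench (version and annotation not given in the sources used here, genome build mm10 per the submitters' processing notes) and deposited the RPKM of each gene symbol. Scaling is within a library, and none between libraries is described. In each file, 4 entries whose symbols had become dates were dropped, which left 51822. No column of another sample was present.

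The 51 genes were found by symbol. These genes, the gene lists and the tests were chosen with earlier results of these data known. Every one of the 51 is accounted for by the rule for named genes, which gave library values to genes called on both days, to 13 genes of known role and to the 5 most abundant. The comparison of the share of the control level left was added after seeing the data.

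Genes that reached an RPKM of 1 in 2 or more libraries (12514) entered a linear model of the 4 groups on log2(RPKM + 1), fitted with limma 3.58.1 under R 4.3.3, with moderated variances (eBayes, trend on), 4 residual degrees of freedom and no covariate. Fold changes on this scale understate those of low genes. The Benjamini-Hochberg adjustment covered all tested genes, and an adjusted p under 0.05 was called. In simulated data, 96% of genes raised 4-fold and 38% of genes raised 2-fold were called at day 7. Of genes lowered to 0.25 and 0.5 of their level, 78.7% and 28% were called, and of the 11437 unchanged genes 0.0262%.

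Depth was recovered as the mapped reads at which low RPKM of genes with a single exon give whole reads within 0.1 (97.3% to 98.3% of the 885 to 1526 values checked), with lengths and positions from GENCODE M21 (GRCm38). Ratios of reads carry exact 95% intervals for the ratio of 2 Poisson counts. Promoters came from the RefSeq table for GRCm38.p6.

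The replicate numbers of the labels (1 and 2 in every group) were not used to pair the libraries in the main fit. Deviations from the group means correlated at −0.0166 (day 7) and 0.0158 (day 14) between control and LAMZ libraries of the same number. Such values show no shared shift but cannot tell whether these libraries shared a culture or a run. Alternatives were other pseudocounts (0.1 and 5), filters and scalings, replicate blocks, no trend, and leaving out each library. Some results are not reported here.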

Additional observations from a re-analysis of the deposited data

Results flagged for a closer look

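Timp3 differed in its response between the days, by the test of the difference itself. The day 14 response to LAMZ exceeded that of day 7 by 1.15 ± 0.19 on the log2 scale (limma, adjusted p = 0.0496), with 28.1 and 29.4 RPKM in the day 7 LAMZ libraries against 61.5 to 81.1 in the other 6. The adjusted p was 0.0558 with a pseudocount of 0.1, 0.12 without the filter, 0.0776 without the mean-variance trend and 0.0785 and 0.162 with the replicate block across all groups and within each day, so the call rests on the settings used, while the day 7 fall of Timp3 held under all of them.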

How the results depend on the processing

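Every gene called at day 7 or day 14 kept its direction there under every alternative that tested it. Some results that were not called in the main fit passed under an alternative. Mmp17 was higher on both days with libraries centred on the median and under quantile normalization. Mmp14 was lower on both days with libraries rescaled to the same sum and under quantile normalization. Mmp11 was lower at day 14 with that rescaling and with either replicate block. The 32 reversals concerned values that were not called. With libraries rescaled to the same sum, the log2 fold change became −0.02 for Adamtsl1 and −0.14 for Adamtsl5 at day 14, and −0.05 for Mmp16, −0.18 for Mmp2, −0.27 for Mmp23, −0.09 for Mmp9 and −0.03 for Timp1 at day 7. With libraries centred on the median, it became 0.09 for Adamts10, 0.09 for Adamts12, 0.04 for Adamts4 and 0.05 for Mmp28 at day 7, and 0.11 for Adamts12, 0.17 for Adamts3, 0.06 for Mmp2, 0.14 for Mmp23 and 0.15 for Timp3 at day 14. Under quantile normalization, it became 0.04 for Adamts10, 0.05 for Adamts12, −0.12 for Mmp2 and 0.06 for Mmp28 at day 7, and 0.04 for Adamts12 and 0.23 for Adamts3 at day 14.

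With 1 library left out, such values ranged from −0.03 to 0.17 (Mmp3), −0.17 to 0.12 (Adamts10), −0.12 to 0.08 (Adamts12), −0.03 to 0.09 (Mmp23) and −0.17 to 0.02 (Adamts4) at day 7, and from −0.23 to 0.19 (Adamts3), −0.21 to 0.05 (Adamts12) and −0.16 to 0.08 (Timp3) at day 14. The counts of called genes then ranged from 6 to 11 at day 7, 13 to 17 at day 14, 0 to 1 for time in control, 3 to 11 for time with LAMZ, 0 for the difference between the days and 3 to 4 for genes lower on both days with an r of at least 0.9 to the macrophage markers. The library that remained in such a group was taken to vary like those of the other groups.

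The count for time in control, 3, was 1 with a pseudocount of 0.1, 0 without the filter, 9 with libraries rescaled to the same sum and 1 with a replicate block within each day. The count for time with LAMZ, 10, was 6 without the filter and 6 with that replicate block. The count for the difference between the days, 1, was 0 with a pseudocount of 0.1, without the filter, with either replicate block and without the trend, and 2 with a pseudocount of 5 or a minimum RPKM of 5. The 5 genes lower with the macrophage markers were 3 without the filter, 8 with libraries rescaled to the same sum, 3 with libraries centred on the median and 3 with the replicate block within each day. By the share of the control level left, a measure added after seeing the data, the count was 2, and both genes (Mmp12 and Mmp27) were below the filter and could not have been among the 5. The replicate block gave 11 and 9 calls at day 7 (across all groups and within each day) and 18 and 16 at day 14. The causes were not tested. Fewer than 50 reads stand behind Mmp3, Mmp12 and Mmp27 in every library. In the simulated data, 2 libraries a group left 2-fold changes mostly uncalled. Those data held 11437 unchanged genes of 11634, so their share of calls does not carry over to the measured data. There, smaller changes were called too, such as that of Adamts2 at day 7 (log2 fold change −0.76).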
